A study of Mus musculus with 4 samples.

Results

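The genes described here are the 10 MHC class II genes and regulators H2-Aa, H2-Ab1, H2-Eb1, H2-DMa, H2-DMb1, H2-DMb2, H2-Oa, H2-Ob, Cd74 and Ciita. They were taken by the gene name that the scanner files give to each non-control probe, which found 13 probes for the 10 genes, out of 55681 probes for 34787 gene names on the array. The genes were chosen on their processed signals on these same 4 arrays, so every value below is a description and none was tested.

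Expression was measured with 1-colour (Cy3) Agilent arrays in 4 samples of mouse blood-forming cells, 1 array per group. The groups were cKO LT-HSC, WT LT-HSC, cKO MPP and WT MPP. LT-HSC are long-term haematopoietic stem cells, sorted as CD34- Flt3- LSK cells, and MPP are multipotent progenitors, sorted as CD34+ Flt3+ LSK cells. LSK cells lack mature lineage antigens and carry Sca-1 and Kit. The donors were male C57BL/6J mice, 10 weeks old, either wild type (WT) or with a conditional knockout of p38 (cKO; the series title names p38 alpha). All 4 groups shared the same handling: donor cells (Ly5.2) were dyed with CFSE, transplanted into Ly5.1 mice irradiated with 9.5 Gy, and sorted again as CFSE-positive marrow cells 16 h later. The Cre driver of the knockout and the number of mice behind each array were not given in the sources used here.

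MHC class II molecules carry peptides from the endosome to the cell surface, where CD4 T cells read them. The classical molecule is an alpha and a beta chain (H2-Aa with H2-Ab1 in I-A, H2-Eb1 in I-E). It is assembled on the invariant chain Cd74, loaded with peptide by the editor H2-DM, and H2-DM is held back by H2-DO. The transactivator Ciita switches the set on through the X and Y boxes of their promoters. In marrow the genes are known for high levels in B cells, dendritic cells and activated macrophages.

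Signals are given as scaled signal, the scanner's processed intensity multiplied by 1 factor per array so that the 75th percentile of the probes is equal on the 4 arrays. The lowest scaled signal that the scanner called well above background lay between 11.1 and 16.5 on the 4 arrays. Differences are log2 differences of scaled signal between a pair of arrays, and ± is the scanner software's own error of that difference. This error was nearly the same for all bright genes, at 0.20 for Cd74 in all 4 comparisons, and larger for dim ones. Its median over all genes was 0.21 in each comparison. It is thus not a spread measured for each gene, and it does not cover differences between samples. With 1 array per group no difference has a replicate check, and fewer cells of a type cannot be told apart from less RNA per cell.

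The probes themselves set what can be read from each gene. The 60-base probes of the genes at both ends of the range described below are shown first, in lower case, 5′ to 3′, with mm9 positions from the files. H2-Aa had the highest LT-HSC to MPP ratio of the 10 genes in cKO, H2-DMa the lowest ratio of the 9 genes that were higher on both LT-HSC arrays, and H2-DMb2 the highest of the H2-DM chains.
H2-Aa (chr17:34421285-34421344, minus strand): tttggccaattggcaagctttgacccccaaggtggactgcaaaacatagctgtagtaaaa
H2-DMa (chr17:34274300-34274863, plus strand): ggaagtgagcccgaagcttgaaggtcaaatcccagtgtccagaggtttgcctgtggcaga
H2-DMb2 (chr17:34284764-34284823, plus strand): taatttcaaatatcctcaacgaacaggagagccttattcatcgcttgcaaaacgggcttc
The H2-DMa probe covers 564 bases of the genome with 60 bases of sequence, so its match to the genome is interrupted, as is that of the brightest H2-Ob probe, which covers 369 bases.

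H2-Ab1 had 2 probes that share 51 bases and differ there at 1 position, written T51C (counted from 1 at the 5′ end of the brighter probe, whose base comes first). The 30 bases around that position are shown with the differing base in capitals.
H2-Ab1 probe 1 (within chr17:34406296-34406355): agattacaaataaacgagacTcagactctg
H2-Ab1 probe 2 (within chr17:34406305-34406363): agattacaaataaacgagacCcagactctg
They overlap and are not separate checks of the gene. The Ciita probe (mm9 chromosome 16, 10526568 to 10526627) holds a simple repeat. Whether the Ciita probe reports Ciita RNA was not tested.

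Both LT-HSC arrays carried far more class II transcript signal than both MPP arrays. Of the 10 genes, 8 were higher by 2-fold or more on the LT-HSC array in cKO, where 8.06% of all genes with a measured difference were higher by that much. In WT it was also 8 of 10, against 10.2% of all genes. In either genotype 0 of the 10 were lower by 2-fold, beside 6.48% of all genes in cKO and 18.3% in WT. The 2 genes under 2-fold were H2-DMa and Ciita. Counting instead differences of more than 2 scanner errors, 9 of 10 genes were higher in cKO, where 43.2% of all genes differed in either direction, and 8 of 10 in WT, where 56.5% did. The median difference over the 10 genes was 2.49 in cKO and 2.59 in WT, while the median over all genes was -0.02 in cKO and -0.11 in WT. These 2 comparisons use different arrays.

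**Figure D1:**
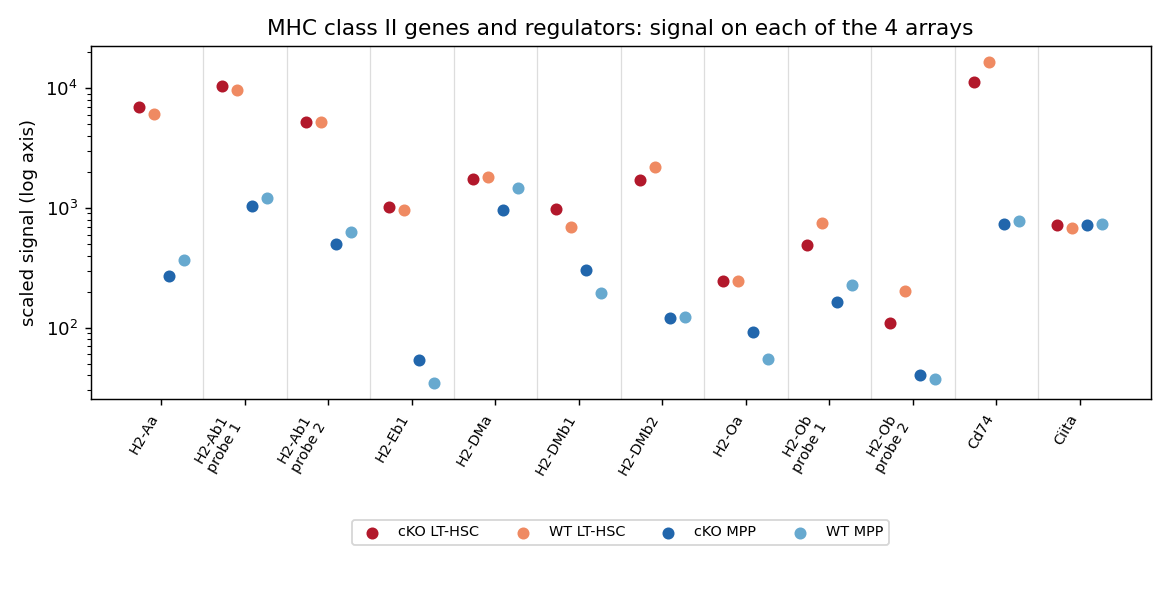
Scaled signal (log axis) of each class II probe that was well above background on all 4 arrays, with 1 point per array. For every probe except that of Ciita both LT-HSC points lie above both MPP points; the gap is wide for H2-Aa, H2-Ab1, H2-Eb1, H2-DMb2 and Cd74, and small for H2-DMa, with 1827 on the WT LT-HSC array and 1463 on the WT MPP array.

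The classical chains had the widest gaps together with Cd74 and H2-DMb2. H2-Aa, the alpha chain of I-A, had a scaled signal of 6932 in cKO LT-HSC and 6116 in WT LT-HSC, against 270.9 in cKO MPP and 369 in WT MPP. The LT-HSC minus MPP difference was 4.68 ± 0.20 in cKO (25.6-fold) and 4.05 ± 0.20 in WT (16.6-fold). The LT-HSC arrays lay close together and far from the MPP arrays, and H2-Aa ranked at position 91 from the top of 23395 genes measured on both arrays in cKO and 141 of 22412 in WT.

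H2-Ab1, the beta chain of I-A, had 10366 in cKO LT-HSC and 9760.0 in WT LT-HSC, against 1042 in cKO MPP and 1203 in WT MPP at its brighter probe. The difference was 3.31 ± 0.20 in cKO and 3.02 ± 0.20 in WT. Its second probe read 5265, 5223, 501.03 and 628 on the cKO LT-HSC, WT LT-HSC, cKO MPP and WT MPP arrays. The second probe thus gave lower signals but nearly the same differences, 3.39 in cKO and 3.05 in WT.

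H2-Eb1, the beta chain of I-E, had 1011 in cKO LT-HSC and 967 in WT LT-HSC, against 54.0 in cKO MPP and 34.3 in WT MPP. The difference was 4.23 ± 0.22 in cKO and 4.82 ± 0.27 in WT, a 28.2-fold ratio. With normexp background correction, an added offset of 50 and the 75th percentile it was 3.12 in cKO and 3.34 in WT. The size of this ratio thus rests on these settings. The C57BL/6 strain is known to make no I-E molecule because its alpha chain gene is defective. The probe of that alpha chain gene (H2-Ea-ps in the files) was not well above background on any of the 4 arrays. H2-Eb2, a related beta chain gene, had 117 and 123 in cKO and WT LT-HSC, against 60.7 and 54.9 in cKO and WT MPP, a difference of 0.95 in cKO and 1.17 in WT.

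Cd74, the invariant chain that fills the groove of newly made class II molecules, has its probe on mm9 chromosome 18 (60972075 to 60972132), away from the H2 genes. It had 11323 in cKO LT-HSC and 16586 in WT LT-HSC, against 733 in cKO MPP and 779 in WT MPP. The difference was 3.95 ± 0.20 in cKO (15.4-fold) and 4.41 ± 0.20 in WT (21.3-fold). The ordering of the 4 arrays was WT LT-HSC highest, then cKO LT-HSC, with the MPP arrays 0.09 apart on the log2 scale.

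The 3 genes of the peptide editor H2-DM did not share 1 size of difference. H2-DMa, the alpha chain, had 1730.4 in cKO LT-HSC and 1827 in WT LT-HSC, against 970.3 in cKO MPP and 1463 in WT MPP. Its difference, 0.83 ± 0.20 in cKO and 0.32 ± 0.20 in WT, stayed under 2-fold in both genotypes. H2-DMb1, a beta chain, had 973 in cKO LT-HSC and 696 in WT LT-HSC, against 306 in cKO MPP and 194 in WT MPP. That is a difference of 1.67 ± 0.20 in cKO and 1.84 ± 0.21 in WT. H2-DMb2, the second beta chain gene, had 1709.5 in cKO LT-HSC and 2193 in WT LT-HSC, against 121 in cKO MPP and 123 in WT MPP. Its difference was 3.82 ± 0.21 in cKO and 4.16 ± 0.21 in WT, far above that of H2-DMb1.

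H2-DMb1 and H2-DMb2 are closely related neighbours, so the signal of either is uncertain where RNA of both could bind the same probe. By the files, the H2-DMb2 probe starts at base 223 of its transcript and the H2-DMb1 probe at base 1219 of its own. Whether RNA of the other gene adds to either probe was not tested.

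The chains of H2-DO, the inhibitor of H2-DM, were intermediate. H2-Oa, the alpha chain, had 247 in cKO LT-HSC and 244 in WT LT-HSC, against 91.8 in cKO MPP and 54.4 in WT MPP. The difference was 1.43 ± 0.21 in cKO and 2.16 ± 0.23 in WT. With normexp background correction and the 75th percentile it was 0.98 in cKO, just under 2-fold, and 1.40 in WT. H2-Ob, the beta chain, had 486 in cKO LT-HSC and 755 in WT LT-HSC, against 165 in cKO MPP and 226 in WT MPP at its brightest probe. The difference was 1.56 ± 0.21 in cKO and 1.74 ± 0.21 in WT.

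H2-Ob had 2 further probes. The second (mm9 chromosome 17, 34382790 to 34382849) read 110.3, 201 and 40.2 on the cKO LT-HSC, WT LT-HSC and cKO MPP arrays and 37.0 on the WT MPP array. Its difference was 1.46 in cKO and 2.44 in WT, so in WT it lay above that of the brightest probe. The third, designed on an unclassified clone that the files place under the same gene name, was not well above background on any array and has no level here.

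The only probe of Ciita, the transactivator of the whole set, gave a flat signal across the 4 arrays. Its 60 bases hold 8 copies of a 5-base repeat unit, with a longest unbroken run of 30 bases. On the array 3 other probes with 20 bases of this repeat were well above background on all 4 arrays. Their LT-HSC minus MPP differences ran from -0.32 to 0.26 in cKO and from -0.05 to 0.26 in WT. Whether the probe of Ciita reports its RNA was not tested. The Ciita probe had 716 in cKO LT-HSC and 683 in WT LT-HSC, against 714 in cKO MPP and 732 in WT MPP. The difference was 0.0044 ± 0.20 in cKO and -0.10 ± 0.20 in WT, both within the scanner error.

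**Figure D2:**
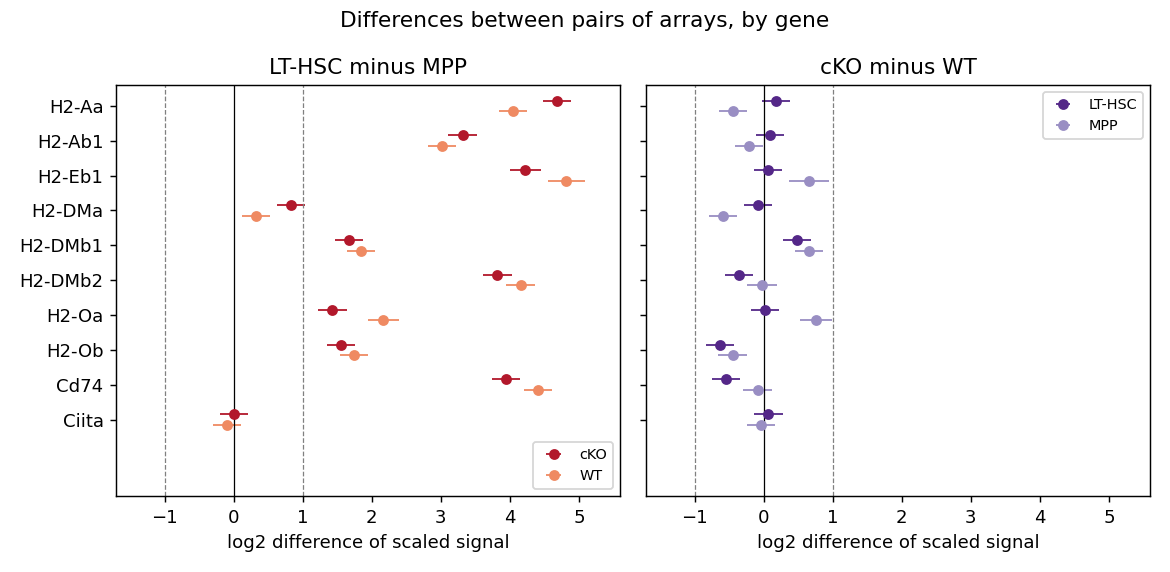
Log2 difference of scaled signal by gene, LT-HSC minus MPP on the left and cKO minus WT on the right. Bars are the scanner's own error and dashed lines mark 2-fold. On the left 8 of 10 genes lie beyond 2-fold in each genotype; on the right all 10 lie between the dashed lines in both populations.

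In LT-HSC no class II gene reached a 2-fold difference between the genotypes. In cKO minus WT, 0 of 10 genes were higher (10.9% of all genes) and 0 of 10 lower (8.01%), where 18.9% of all genes passed 2-fold in either direction. The median of the 10 genes was 0.04, beside a median of 0.13 over all genes. For 6 of the 10 genes the difference was smaller than the scanner error: H2-Aa, H2-Ab1, H2-Eb1, H2-DMa, H2-Oa and Ciita. More than 2 scanner errors separated the arrays for 3 of the 10 genes, which compares with 42.5% of all genes measured on both arrays. That count was 2 with normexp and the 75th percentile, and 4 with quantile normalization, with or without normexp.

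Those 3 genes went both ways. H2-DMb1 was higher in cKO LT-HSC by 0.48 ± 0.20, but by 0.39, under 2 errors, with normexp and the 75th percentile. Cd74 was lower by -0.55 ± 0.20 and H2-Ob by -0.63 ± 0.20, and the second H2-Ob probe was lower by -0.87 ± 0.21. Between them lay H2-DMb2, at -0.36 ± 0.20. It passed 2 errors at -0.43 with quantile normalization and at -0.41 with normexp and quantile normalization.

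In MPP the genotype difference was again under 2-fold for all 10 genes, where 2.4% of all genes were higher, 2.63% lower and 5.03% either. The median of the 10 genes was -0.06, beside -0.05 over all genes. At more than 2 scanner errors there were 6 of 10 genes, beside 21.9% of all genes, 3 of them higher and 3 lower. That count rests on the processing: at the same errors it was 2 of 10, 1 higher and 1 lower, under both normexp settings, and 4 of 10 with the 75th percentile taken over probes detected on every array. H2-DMb1 and H2-DMa made up the 2. H2-Oa was higher in cKO MPP by 0.75 ± 0.23, H2-Eb1 by 0.66 ± 0.28 and H2-DMb1 by 0.65 ± 0.21. H2-DMa was lower by -0.59 ± 0.20, H2-Ob by -0.45 ± 0.21 and H2-Aa by -0.45 ± 0.21. The second H2-Ob probe stood at 0.12 ± 0.27, and the mean of the H2-Ob probes at -0.17, within 1 scanner error. The third H2-DM chain, H2-DMb2, stood at -0.02 ± 0.21. H2-Eb1 and H2-Oa were among the dimmest members on the MPP arrays, and with normexp and quantile normalization their differences were 0.28 and 0.43.

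On mm9 chromosome 17 the probes of 8 of the genes lie within 221 kb, from 34232033 to 34453134, with other genes between them. In that interval 6 probes of 5 other genes were well above background on all 4 arrays. They belong to Brd2, a chromatin reader, to the immunoproteasome subunits Psmb8 and Psmb9, and to the peptide transporters Tap1 and Tap2 of the class I pathway. In cKO the LT-HSC minus MPP differences of these 6 probes ran from -0.50 to -0.02, while the 10 class II probes ran from 0.83 to 4.68. In WT the 6 probes ran from -1.07 to 0.46 and the class II probes from 0.32 to 4.82. Psmb8 (-1.04) and Tap2 (-1.07) were lower by 2-fold on the WT LT-HSC array, and both stand between class II genes that were higher there.

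**Figure D3:**
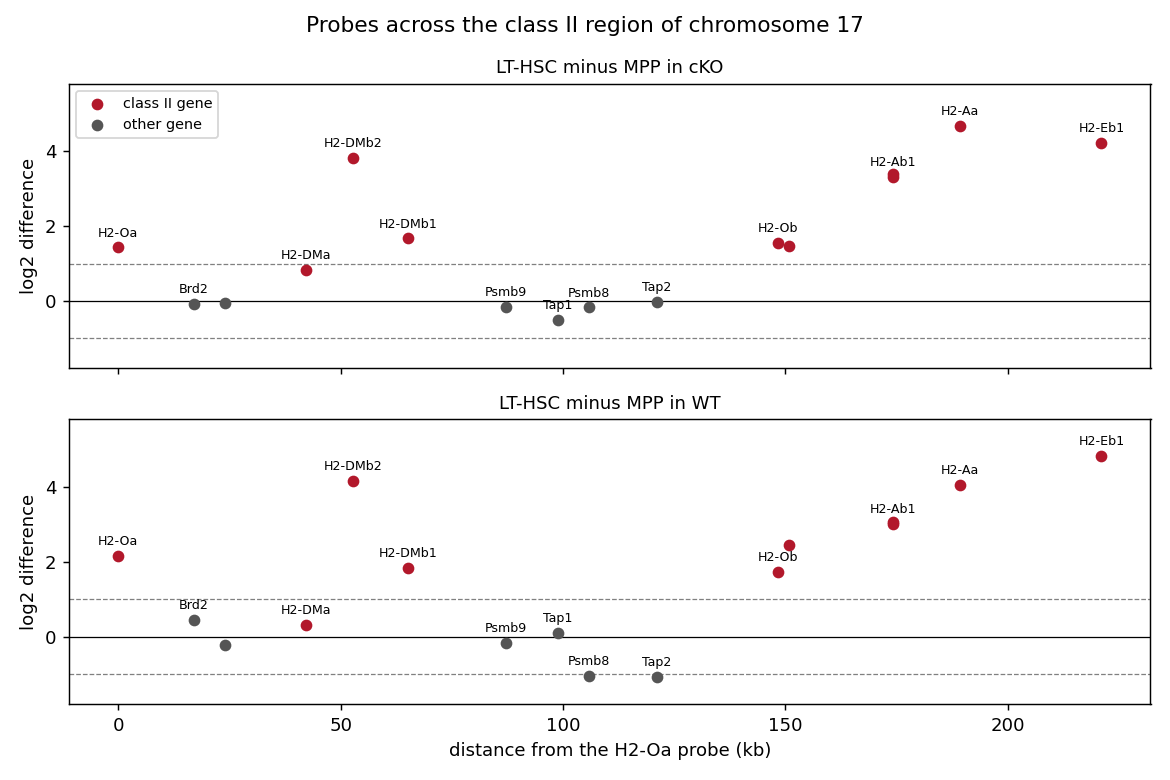
LT-HSC minus MPP difference (log2) of each probe well above background on all 4 arrays, by distance in kb from the H2-Oa probe on chromosome 17, in cKO above and WT below. Class II probes stand above 0 throughout, and the 6 probes of Brd2, Psmb9, Tap1, Psmb8 and Tap2 between them lie at or below 0.46.

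Ciita is known to act through a promoter module, an X box followed by a Y box, so the promoter windows of the class II genes were read for both. RefSeq windows on GRCm38.p6, from 250 bases before to 50 bases after each annotated start, were present for 7 of the 10 genes (8 windows, 2 of them for H2-DMa). H2-Ab1, Cd74 and Ciita had no entry. The Y box was searched as TGATTGG and the X box core as GNAAC, on both strands, with letters chosen after the windows of these genes had been read. TGATTGG was present in 7.82% of all 32851 windows and in 6 of the 7 genes, all but H2-DMa. GNAAC alone is common (84.9% of windows). With GNAAC starting 25 to 40 bases before TGATTGG on the same strand, the share was 0.426% of all windows, and 5 of the 7 genes had it. The 60 bases around the boxes are shown in the direction of transcription, with the X box core and Y box in capitals.
H2-Aa (chr17:34287859-34287918, minus strand): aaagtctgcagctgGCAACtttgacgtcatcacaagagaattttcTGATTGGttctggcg
H2-Eb1 (chr17:34305761-34305820, plus strand): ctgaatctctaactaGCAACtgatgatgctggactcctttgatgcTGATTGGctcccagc
H2-Oa (chr17:34092289-34092348, plus strand): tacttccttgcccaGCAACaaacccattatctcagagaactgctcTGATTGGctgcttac
H2-Ob (chr17:34238801-34238860, plus strand): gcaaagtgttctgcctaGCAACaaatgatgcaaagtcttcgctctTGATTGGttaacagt
H2-DMb1 (chr17:34153083-34153142, plus strand): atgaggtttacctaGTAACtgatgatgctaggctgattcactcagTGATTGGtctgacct
H2-DMb2 (chr17:34145112-34145171, plus strand): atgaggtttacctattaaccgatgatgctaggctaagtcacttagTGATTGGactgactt
The Y box began 45 to 92 bases before the annotated start, and the X core stood 28 to 31 bases before it. The H2-DMb1 and H2-DMb2 stretches were identical at 53 of 60 bases, with GNAAC at that place in H2-DMb1 but not in H2-DMb2. H2-DMb2 had a larger LT-HSC to MPP difference than H2-DMb1. H2-DMa, whose windows hold no TGATTGG, had the smallest difference of the 9 genes other than Ciita. No match says only that these letters are not in the window. Whether the boxes bear on the size of a difference was not tested.

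The other genes of the class II pathway did not follow the 10 genes as a group. Of the proteins that bind the X and Y boxes (Rfx5, Rfxank, Rfxap, Nfya, Nfyb, Nfyc and Creb1), 6 of 7 were measured. In LT-HSC minus MPP 1 of 6 was higher by 2-fold in cKO and 2 of 6 in WT, with 0 lower, and medians of -0.25 and 0.16. Rfxank, a subunit of the RFX complex, stood at 1.18 in cKO and 1.34 in WT, and Rfx5, another subunit, at 0.24 in cKO and 1.41 in WT. Nfya, a subunit of the Y box factor NF-Y, stood at -0.67 in cKO and -0.77 in WT.

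Proteases and turnover factors of the endosome divided by gene. Of 10 measured, 4 were higher and 2 lower by 2-fold in LT-HSC against MPP in cKO, and 3 were higher and 1 lower in WT. Ctss, the protease that trims the invariant chain, had 10558 in cKO LT-HSC and 8905 in WT LT-HSC, against 2591 in cKO MPP and 1719.8 in WT MPP. It was higher on the LT-HSC array by 2.03 in cKO and 2.37 in WT, in the direction of the class II genes. Ctsl, a related protease, stood at 1.94 in cKO and 1.70 in WT. Ifi30, a thiol reductase that unfolds antigens, stood at 2.17 in cKO and 0.94 in WT. Lgmn, an endosomal protease, stood at -1.64 in cKO and 0.01 in WT. The Lgmn signal was 1055 in cKO MPP against 306 in WT MPP, a cKO minus WT difference of 1.79.

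The class I pathway gave a contrast on the same arrays. All 13 of its listed genes were measured. In LT-HSC minus MPP 0 of 13 were higher and 0 lower by 2-fold in cKO, and 1 was higher and 3 lower in WT, with medians of -0.16 and -0.12. H2-K1, a classical class I heavy chain, stood at 0.35 in cKO and 0.44 in WT. B2m, the light chain of class I, stood at 0.21 in cKO and -0.11 in WT. Nlrc5, which is known to switch on class I genes as Ciita does class II genes, was the highest of the list at 0.88 in cKO and 1.45 in WT. Calr, a chaperone of class I assembly, was the lowest at -0.92 in cKO and -1.31 in WT.

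The interferon gamma axis, which is known to induce Ciita, was measured for 8 of 8 genes in LT-HSC minus MPP. All 8 differences were above 0 in cKO and in WT, and 3 reached 2-fold in each, with medians of 0.41 and 0.78. Socs1, a feedback inhibitor, enters at its bound because it was not well above background on the MPP arrays. Jak2, a receptor kinase, differed by 1.20 in cKO and 1.25 in WT.

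Markers of cells that are known to carry class II moved with the LT-HSC to MPP difference. B cell markers were higher by 2-fold on the LT-HSC array for 11 of 15 genes in cKO and 13 of 15 in WT, with 0 lower and medians of 2.38 and 3.87; here and for the dendritic cell markers, a gene measured on only 1 array of a pair enters at its bound. Their summed scaled signal was 16284 in cKO LT-HSC and 22222 in WT LT-HSC, against 5470.2 in cKO MPP and 4486 in WT MPP. Cd22 and Cr2, both under 2-fold between LT-HSC and MPP, made up most of the MPP sums. Cd22 had 3470 in cKO MPP and 2705 in WT MPP, and Cr2 had 1351 and 1067. All 15 were well above background on both LT-HSC arrays and 11 of 15 on each MPP array. Cd79a, a chain of the B cell receptor, had 2455 in cKO LT-HSC and 4735 in WT LT-HSC, against 112 in cKO MPP and 110.3 in WT MPP. Ms4a1, Ebf1 and Igll1 were not well above background on either MPP array.

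Dendritic cell markers moved the same way. Of 10 plasmacytoid dendritic cell markers, 6 were higher by 2-fold in cKO and 9 in WT (medians 1.34 and 2.37), with summed signals of 13418 in cKO LT-HSC and 21670 in WT LT-HSC, against 7949 in cKO MPP and 7766 in WT MPP. Siglech, a receptor that marks this cell type, was flat, at 0.05 in cKO and -0.03 in WT. It made up most of the MPP sums, with 4712 in cKO MPP and 5030 in WT MPP. Of 9 measured conventional dendritic cell markers, 7 were higher in cKO and 5 in WT (medians 2.78 and 2.66). Their summed signal was 3271 in cKO LT-HSC and 5067 in WT LT-HSC, against 420.3 in cKO MPP and 409 in WT MPP. Most of each sum came from Clec10a alone, with 2477 in cKO LT-HSC, 3771 in WT LT-HSC, 304 in cKO MPP and 245 in WT MPP. Xcr1 was not well above background on any array, and Clec9a, Batf3, Cd209a and Ccr7 were so only on the LT-HSC arrays. The part of B cell or dendritic cell RNA in the class II signal was not tested.

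Macrophage and monocyte markers mostly went the other way. Of 12 measured, 2 were higher and 7 lower by 2-fold in LT-HSC against MPP in cKO (median -1.42). In WT 1 was higher and 5 lower (median -0.94). The higher ones were Cx3cr1, at 3.91 in cKO and 1.83 in WT, and Ccr2, at 1.33 in cKO but -0.81 in WT. Among those lower in cKO were Vcam1 (-7.08) and Marco (-4.61). Mertk enters at its bound in both genotypes and Siglec1 in WT. In cKO minus WT in MPP, 8 of 12 were higher by 2-fold and 0 lower, with a median of 1.10. Beside them stood 0 of 10 class II genes, with a median of -0.06. Over all genes 2.4% were higher and 2.63% lower in that pair of arrays. The summed signal of the macrophage and monocyte markers was 14958 in cKO MPP and 8471 in WT MPP. The summed signal of the 10 class II genes was 4469 in cKO MPP and 5178 in WT MPP. H2-DMa had 970 and 1463 of these sums, and 3 of the 10 genes were higher in cKO MPP. The part of macrophage RNA in the class II signal was not tested.

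In LT-HSC the lineage markers differed between the genotypes in both directions. B cell markers were lower in cKO LT-HSC by 2-fold for 8 of 15 genes, with 0 higher and a median of -1.005, and plasmacytoid dendritic cell markers for 5 of 10, with 0 higher and a median of -0.87. Conventional dendritic cell markers were 2 higher and 4 lower of 9 (median -0.61). Macrophage and monocyte markers mostly went the other way, with 4 higher and 1 lower of 11 measured and a median of 0.75. Adgre1, which encodes F4/80, stood at 2.01, and Ccr2, a monocyte chemokine receptor, at 2.21. Siglec1 enters at its bound. The largest difference in absolute size was that of Vcam1, the 1 lower gene, at -4.31. Its signal was 15.3 in cKO LT-HSC and 303 in WT LT-HSC. In the same pair of arrays 0 of 10 class II genes passed 2-fold, beside 18.9% of all genes (10.9% higher, 8.01% lower). The summed signal of the 10 genes was 35494 in cKO LT-HSC and 39826 in WT LT-HSC. Cd74 had 11323 and 16586 of these sums, and 6 of the 10 genes were higher in cKO LT-HSC. The comparison of LT-HSC with MPP in WT and that of cKO with WT in LT-HSC share the WT LT-HSC array.

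**Figure D4:**
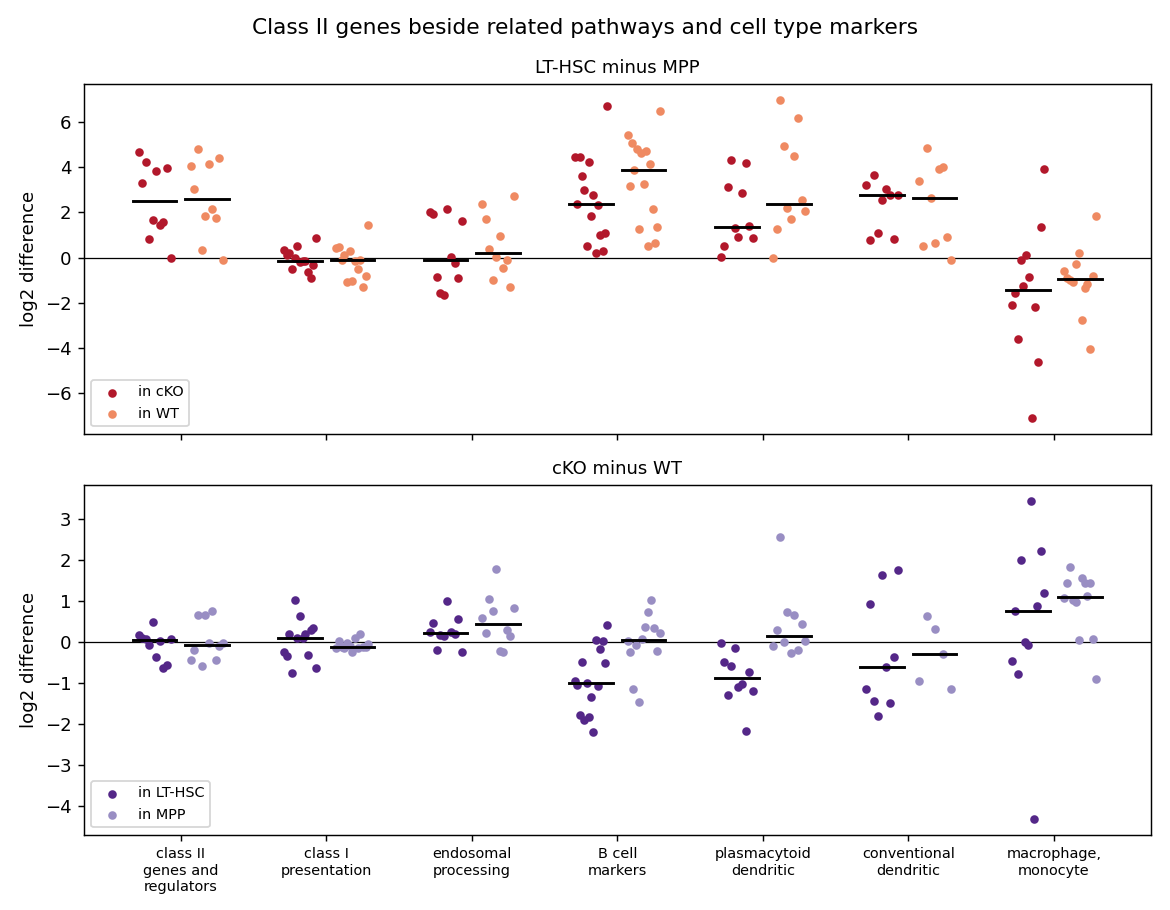
Log2 differences of single genes (points; a gene measured on only 1 array of the pair is drawn at its bound) and list medians (black bars), LT-HSC minus MPP above and cKO minus WT below. In the upper panel class II genes, B cell and dendritic cell markers lie mostly above 0 and class I genes around it; in the lower panel the class II medians are 0.04 and -0.06.

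The sort markers were read on the same arrays. Cd34, absent from the surface of LT-HSC by the sort, had 3440 in cKO LT-HSC and 1043 in WT LT-HSC, against 6924 in cKO MPP and 8295 in WT MPP. Flt3 at its brightest probe differed by -1.14 in cKO and -1.81 in WT between LT-HSC and MPP. Kit was at 2640 in cKO LT-HSC and 2638 in WT LT-HSC, against 2907 in cKO MPP and 4008 in WT MPP. The stem cell antigen Ly6a was higher on the LT-HSC arrays, by 2.12 in cKO and 1.96 in WT. The lineage markers given above are transcripts of cells that the LSK gate is meant to leave out.

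Across the 21550 genes well above background on all 4 arrays, likeness to the class II pattern was measured as the root mean square distance between centred log2 profiles over the 4 arrays. The pattern was the mean profile of H2-Aa, H2-Ab1, H2-Eb1 and Cd74. H2-DMb2 was not used to make it but was chosen on the same arrays, so its place is no separate support. It lay at a distance of 0.11, the nearest of all genes. The genes that made the pattern ranked at positions 4 (Cd74), 6 (H2-Aa), 16 (H2-Eb1) and 34 (H2-Ab1). H2-Oa, H2-DMb1 and H2-Ob ranked at positions 382, 405 and 444, H2-DMa at 2366 and Ciita at 9083. Outside the 10 genes, the nearest named genes were Gimap8 (0.15), Pld4 (0.18), Arl5c (0.22), Havcr1 (0.27), Sdc4 (0.28), Mzb1 (0.29) and Aqp1 (0.30). The remaining 3 of the 10 nearest were probes with no gene symbol in the files. Gimap8 had 1912 in cKO LT-HSC and 1847 in WT LT-HSC, against 141 in cKO MPP and 136 in WT MPP, so the genotypes nearly coincided in each population. Mzb1, a B lineage chaperone, had 749.5 in cKO LT-HSC and 664.5 in WT LT-HSC, against 33.0 in cKO MPP and 26.98 in WT MPP.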

How the data were processed

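Processed Cy3 intensities (linear intensity, background-subtracted and detrended within each array, not scaled between arrays) were made by the authors with Agilent Feature Extraction 10.7.3.1 on array design 028005, per the file headers. Version 9.5.3 is named in the submitters' processing notes. Per the file headers, each spot also carries flags (a score of 0 or 1) for signal well above background, for saturation and for outliers; 0 spots were saturated, and 137 to 151 outlier spots per array were left out. The deposited series table holds a ratio of each probe to its own level over the 4 arrays. Probe by probe, its between-array differences and those of the scanner signals gave r = 1 and the same direction, with column medians of 97.5 (cKO LT-HSC), 91.9 (WT LT-HSC), 102 (cKO MPP) and 107 (WT MPP); its scaling rule stays unknown.

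Of 59305 spots per array, 70.5% were well above background in cKO LT-HSC, 68.3% in WT LT-HSC, 65.0% in cKO MPP and 62.5% in WT MPP. Repeat spots of a probe (10 per array) varied by a median SD of 0.09 to 0.10 (log2). The number of arrays limits the precision. Here log2 processed signal minus the array's 75th percentile was computed (Python 3.11.15, pandas 2.3.3), spots of a probe were averaged, and a gene was represented by its brightest probe among those well above background on at least 1 array. Names came from RefSeq GRCm38.p6: 26762 probes matched by accession, 3819 by symbol and 639 by an outdated symbol, while 24461 stayed under the files' own name. A gene well above background on 1 of 2 arrays was given the bound to the lowest signal well above background. A call means 2-fold or more, and no p-value was computed. The calling step was checked on simulated data. Alternatives were the percentile over probes detected on every array, quantile normalization, the mean of a gene's probes, no dim-probe filter and the authors' table. Normexp background correction was also used, with the 75th percentile and with quantile normalization (limma 3.58.1, R 4.3.3). Both of these normexp settings added an offset of 50 to every spot.

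Every probe of the 10 genes was reported. Of other lists, counts, medians and up to 4 genes with the largest differences were to be named, plus genes on which a statement turns, and the 10 genes nearest in pattern; defining genes of a list (H2-K1, B2m, Cd79a, Siglech) were picked after their values were seen. Members and lists were chosen with earlier results of these data known. Some genes of the lists and 1 probe sequence are not reported here.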

Additional observations from a re-analysis of the deposited data

Results flagged for a closer look

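With 1 array per group, a difference of opposite sign in the other population or genotype was noted for 3 of the 10 genes, and none of these differences between groups was tested. The cKO minus WT difference of H2-Aa was 0.18 ± 0.20 in LT-HSC and -0.45 ± 0.21 in MPP. That of H2-Ab1 was 0.087 ± 0.20 in LT-HSC and -0.21 ± 0.20 in MPP. That of Ciita was 0.068 ± 0.20 in LT-HSC and -0.035 ± 0.20 in MPP, and its LT-HSC minus MPP difference was 0.0044 in cKO and -0.099 in WT. All but the MPP values of H2-Aa and H2-Ab1 lay within the scanner error.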

How the results depend on the processing

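Under the 7 alternatives, the count of class II genes higher by 2-fold in LT-HSC against MPP stayed at 8 of 10, except in cKO with normexp and the 75th percentile, where H2-Oa stood at 0.98, and no gene past 2-fold changed sign. The median in WT was 2.81 with quantile normalization and 2.32 with normexp and the 75th percentile, against 2.59. In cKO minus WT, 0 of 10 genes reached 2-fold under any of the 7. Those medians lay between -0.03 and 0.05 in LT-HSC and between -0.06 and 0.01 in MPP, so they have no settled sign. Of 280 values of single genes, 250 moved by less than the scanner error, but not all settings could move them. Dropping the filter left all 40 values unchanged, because the brightest probe of each gene was well above background on all 4 arrays. The mean of probes could change only H2-Ab1 and H2-Ob, and the authors' table follows the same signals (r = 1). Under each normexp setting 12 of 40 values moved by at least the scanner error. Among the 10 genes H2-Eb1 moved most, to 3.34 in WT, against 4.82, with normexp and the 75th percentile. That setting adds an offset of 50 to every spot, beside H2-Eb1 processed signals of 49.4 in cKO MPP and 31.9 in WT MPP. Such an offset lowers ratios to dim signals. How much of the change came from it was not tested. The median of all genes shifted by over 0.1 in LT-HSC minus MPP in WT, by 0.12 with quantile normalization, 0.11 with normexp and quantile normalization, 0.13 with the percentile taken over probes detected on every array and -0.13 with no filter. It also shifted in cKO minus WT in LT-HSC, by -0.11 with quantile normalization and -0.12 with normexp and quantile normalization. Relative to all genes the class II median in WT lay between 2.45 and 2.83 over the 7. No paired analysis was possible because the groups compared share fewer than 2 replicate numbers; an additive fit of cell population and genotype over the 4 arrays was not run.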

Other observations

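The factors known to act on the promoters of Ciita itself were also read. Of 8 measured, 4 were higher by 2-fold in LT-HSC against MPP in cKO and 5 in WT, with 0 lower. Spib, a lymphoid ETS factor, had 2017 in cKO LT-HSC and 4729 in WT LT-HSC, against 29.7 in cKO MPP and 29.4 in WT MPP. Irf8, a factor of B and dendritic cells, had 1831 in cKO LT-HSC and 3139 in WT LT-HSC, against 376 in cKO MPP and 353 in WT MPP. Irf4 had 484 in cKO LT-HSC and 534.5 in WT LT-HSC and was not well above background on either MPP array. Spi1, the ETS factor PU.1, went opposite ways in the genotypes, at 0.83 in cKO and -0.99 in WT, and its cKO minus WT difference was 1.08 in LT-HSC and -0.75 in MPP.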
